A study of Mus musculus with 59 samples.

Results

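Gene expression was compared between granulocyte-monocyte progenitors (GMPs) and KLS cells of wild-type (WT) mice, the step that haematopoiesis takes in these mice when Daxx is intact. The 6 libraries, 3 of each cell type, were those of the 59 labelled samples that carried the wild-type Daxx genotype, came from Mx1Cre mice at 3 weeks post induction (w.p.i.) and had a gene-level column for KLS cells or GMPs. A GMP and a KLS library headed by the same number formed a pair, and the pairs are called 1, 2 and 3. The gene tables were joined over 51810 genes, and all of these were considered.

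KLS cells are sorted as lineage-negative cells that carry c-Kit and Sca-1. They are a mixture of the haematopoietic stem cells with the multipotent progenitors that descend from them. GMPs are sorted as lineage-negative, c-Kit-positive and Sca-1-negative cells that carry CD34 and the Fc receptors CD16/32. They have lost most capacity to make lymphoid, erythroid or platelet-forming cells, divide often, and give rise to neutrophils and monocytes. On this route the transcription factors Pu.1 (encoded by Spi1), C/EBPα and C/EBPε are known to switch on the genes of granule proteins, first those of the primary granules and later those of the secondary and tertiary granules.

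All 6 libraries came from bone marrow of C57BL/6 mice labelled Daxx +/+ Cre +/-. They therefore carried the Mx1Cre transgene and, per the methods of the study, received pI:pC, a double-stranded RNA mimic that drives the interferon-responsive Mx1 promoter, but had no floxed Daxx allele on their labels. The wild-type mice are thus a control for Cre and pI:pC and were not untreated. Mice of both sexes were used, and the age and sex of each mouse are not given in the labels. Per the study, the lineage panel used for sorting was built to remove B cells (B220), granulocytes and monocytes (Gr-1, CD11b), erythroid cells (TER-119) and T cells (CD3e, CD4, CD8). The samples are bulk populations, so a change in the mixture of cells cannot be told apart from a change in RNA per cell.

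The libraries held 12185006 to 14920351 reads on genes. Values are given as scaled reads, that is, read counts put on one scale over the 6 libraries, and differences as log2 GMP minus KLS with the standard error of the model (SE, n = 3 pairs). Along the first principal component, which held 72.1% of the variance, KLS cells and GMPs fell apart without overlap. The second, with 10.6%, set the KLS library of pair 3 apart from the other 5. That library was higher than the other KLS libraries in granule and immunoglobulin genes, and its values are given beside the results they touch.

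Of 14571 genes tested, 3928 (27.0%) were higher and 3696 (25.4%) lower in GMPs at an adjusted p under 0.05, so that 52.3% of tested genes were called. The median log2 difference over all tested genes was -0.02. Large changes leaned towards loss, since 697 genes fell and 187 rose by at least 8-fold. The 3 libraries of one cell type lay on one side of the 3 of the other for 59.9% of tested genes. The split of calls depended on the scaling. With library totals in its place, 2779 genes were called higher and 4485 lower, and the median of all genes moved to -0.23. On the values as deposited the counts were 2628 and 4806, with a median of -0.27. Counts of a gene group below are to be read against these shares.

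The sort was checked first. Fcgr3, one of the genes behind the CD16/32 stain, had 249, 120 and 572 scaled reads in KLS cells and 2889, 1383 and 3114 in GMPs of pairs 1, 2 and 3 (log2 3.16 ± 0.23, adjusted p = 8.72e-05). Ly6a, which encodes Sca-1, went the other way, from 282, 228 and 397 to 16.2, 8.55 and 31.4 (log2 -4.08 ± 0.34, adjusted p = 0.000131). Neither gene overlapped between the cell types. Kit, the receptor for stem cell factor, was well expressed in both populations but fell from 15308, 13986 and 10884 to 5667, 6409 and 5018 (log2 -1.23 ± 0.11). Cd34 fell by 0.72 on the log2 scale, although both gates can hold cells that carry CD34, and this call was lost without pair 3 (adjusted p = 0.0512). Ly6a and Fcgr3 thus differed in the direction that the gates select. Kit and Cd34, which the GMP gate also requires, were lower in GMPs than in KLS cells. Levels of these and of other genes described below are drawn per library in the plot of selected genes.

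**Figure D1:**
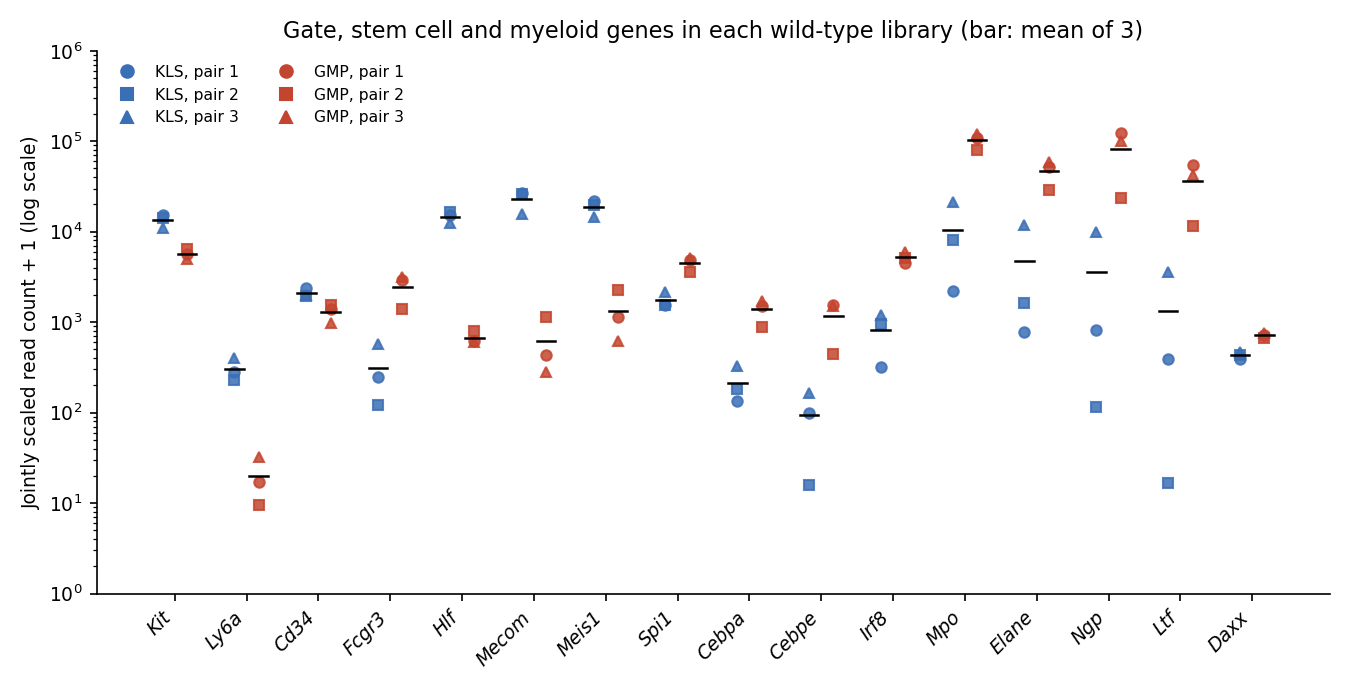
Jointly scaled reads plus 1 on a log axis for 16 genes in the 3 KLS (blue) and 3 GMP (red) libraries, with the mean of 3 as a bar and the pair as the symbol. Ly6a, Hlf, Mecom and Meis1 lie lower in every GMP library than in any KLS library, Fcgr3, Spi1, Mpo and Ngp lie higher, and the KLS library of pair 3 is the highest KLS library for Mpo, Elane, Ngp and Ltf.

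The stem cell programme was lower in GMPs throughout. All 27 tested genes of a list of 30 stem cell identity genes fell, with a median log2 difference of -4.13. The other 3 genes were listed at 0 in all 6 libraries, which in these tables also holds for genes that most cells use. For 26 of the 27 every GMP library was below every KLS library. Together the list took 1.31, 1.28 and 0.875% of reads in KLS cells and 0.0955, 0.165 and 0.0707% in GMPs.

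Hlf, a transcription factor used to mark stem cells, had 15240, 16378 and 12485 scaled reads in KLS cells and 618, 796 and 596 in GMPs (log2 -4.46 ± 0.11, adjusted p = 6.31e-06). Mecom, which encodes Evi1 and is needed for stem cell maintenance, went from 26748, 25963 and 15736 to 427, 1150 and 278 (log2 -5.43 ± 0.26). Meis1, a partner of Hox proteins, went from 21600, 19766 and 14372 to 1138, 2271 and 618 (log2 -3.97 ± 0.24). The KLS library of pair 3 was the lowest KLS library for each of these genes, and the GMP library of pair 2 was the highest GMP library.

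Among surface receptors of stem cells, Procr (log2 -5.24) and Tek, the receptor for angiopoietins (log2 -3.23), fell. Angpt1, a ligand of Tek, had 37403, 35379 and 23473 scaled reads in KLS cells and 1974, 4281 and 1030 in GMPs. Per kilobase of exon it was the gene with the 11th highest level among 21736 protein-coding genes in KLS cells and ranked 1350 in GMPs. Erg fell less (log2 -1.77 ± 0.10), as did Gata2 (log2 -0.91 ± 0.14), and without the pairing the call for Gata2 was lost (adjusted p = 0.0821). Nkx2-3 kept 2.31, 0 and 1.21 scaled reads in GMPs against 460, 360 and 293 in KLS cells. The step was therefore one of unequal size among stem cell genes, from a few units of reads for some to a partial loss for others.

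Of 20 Hoxa and Hoxb genes, 6 passed the minimum level, and 5 of them fell (median log2 -2.26). Hoxa9, which sustains self-renewal of progenitors, went from 426, 632 and 268 to 131, 221 and 88.3 (log2 -1.60 ± 0.19). Hoxb8 was listed at 0 in all 3 GMP libraries. Hoxb4 did not pass the test (log2 -0.50 ± 0.35).

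Outside the lists, the largest falls were led by Lhcgr, the receptor for luteinizing hormone, on chr17:88716481-88791990. It had 1606, 1447 and 740 scaled reads in KLS cells and 3.47, 13.3 and 1.21 in GMPs (log2 -7.85 ± 0.43, adjusted p = 4.43e-05). Slc16a12, a monocarboxylate transporter, went from 1614, 948 and 633 to 2.31, 19.9 and 2.42. Gimap8, a GTPase of immune cells, went from 828, 935 and 360 to 9.26, 7.60 and 0. Each of these genes had 360 scaled reads or more in every KLS library and 19.9 or fewer in every GMP library. Gm28153 and Gm16070 were also among the 10 largest falls, but they overlap Crispld1 on the opposite strand, and whether the counting used strand is not stated.

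The regulators of the myeloid fate mostly rose, but not as a block. Of 24 tested myeloid transcription factors 13 rose and 7 fell (median log2 0.53), and the falls numbered 4 without pair 1 and 3 without pair 3. Spi1, which encodes Pu.1, had 1553, 1549 and 2128 scaled reads in KLS cells and 4885, 3602 and 5116 in GMPs (log2 1.38 ± 0.13, adjusted p = 0.000188). It was thus clearly expressed before the GMP stage. Cebpa had 132, 183 and 326 scaled reads in KLS cells and 1526, 880 and 1732 in GMPs (log2 2.73 ± 0.25). Cebpe, which acts later in granulocytes, went from 97.1, 14.7 and 165 to 1543, 444 and 1511 (log2 3.99 ± 0.31, adjusted p = 0.000105). The GMP library of pair 2 was the lowest GMP library for all 3 of these genes. Gfi1, a repressor that favours granulocytes, rose by 1.90 and Irf8, which favours monocytes and dendritic cells, by 2.86, so regulators of both branches were higher in the same population. Klf4, linked to monocytes, rose by 3.43. Among genes with roles in stem cells, Runx1 (log2 -0.52), Lmo2 (log2 -1.90) and Etv6 (log2 -1.27) fell. The fall of Runx1 was lost without pair 1 (adjusted p = 0.130), without pair 3 (adjusted p = 0.106) and without the pairing (adjusted p = 0.124). Myb gave a log2 difference of 0.32 ± 0.10 that was lost under 7 of the alternatives.

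The proteases and peroxidase of primary granules, which the first granules of the neutrophil lineage store, rose together. Of 19 tested genes for primary granule proteins and their processing enzymes 17 rose and 1 fell (median log2 2.35), the fall being lost without the pairing and without pair 1 or pair 2. Promoter windows of the myeloperoxidase gene and of the genes for neutrophil serine proteases are printed here because Pu.1 is known to act on promoters of this class, and they were picked after their values were seen. They are RefSeq sequence on GRCm38.p6 (the same chromosome sequence as mm10), from 250 bases before the start of the gene to 50 after it, and the capitals mark the core letters GAGGAAG, as bound by Pu.1, or their reverse complement.
Mpo (chr11:87793534-87793833, plus strand): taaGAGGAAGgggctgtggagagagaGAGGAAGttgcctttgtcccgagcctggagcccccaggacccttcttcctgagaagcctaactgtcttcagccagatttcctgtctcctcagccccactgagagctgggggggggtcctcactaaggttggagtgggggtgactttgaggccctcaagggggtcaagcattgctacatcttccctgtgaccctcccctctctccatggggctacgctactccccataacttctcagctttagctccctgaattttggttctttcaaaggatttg
Elane (chr10:79886062-79886361, plus strand): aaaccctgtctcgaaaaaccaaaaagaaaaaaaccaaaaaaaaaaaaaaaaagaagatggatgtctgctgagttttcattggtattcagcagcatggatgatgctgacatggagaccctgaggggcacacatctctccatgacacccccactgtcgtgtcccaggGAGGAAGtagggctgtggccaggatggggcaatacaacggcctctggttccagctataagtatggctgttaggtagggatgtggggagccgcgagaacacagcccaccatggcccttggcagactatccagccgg
Prtn3 (chr10:79879417-79879716, plus strand): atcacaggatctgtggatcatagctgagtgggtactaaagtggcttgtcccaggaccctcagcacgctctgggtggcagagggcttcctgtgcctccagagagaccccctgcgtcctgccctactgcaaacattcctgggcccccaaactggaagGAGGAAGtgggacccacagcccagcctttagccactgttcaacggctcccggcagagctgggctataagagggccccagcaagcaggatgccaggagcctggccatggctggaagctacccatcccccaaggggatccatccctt
Ctsg (chr14:56102525-56102824, minus strand): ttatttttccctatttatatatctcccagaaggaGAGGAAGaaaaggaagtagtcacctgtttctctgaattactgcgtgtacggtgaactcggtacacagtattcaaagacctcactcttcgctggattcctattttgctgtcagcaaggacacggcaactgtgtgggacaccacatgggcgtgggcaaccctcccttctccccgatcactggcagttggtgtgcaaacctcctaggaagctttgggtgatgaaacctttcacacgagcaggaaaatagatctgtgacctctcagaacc
Elane and Prtn3 lie next to each other on chromosome 10. The letters GAGGAAG, searched on both strands, were in 6 of the 16 primary granule genes with a window (37.5%) and in 13.5% of 27025 windows of all genes. They are a description of the sequence, and no binding was measured in these files.

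Mpo, myeloperoxidase, had 2212, 8054 and 21164 scaled reads in KLS cells and 107241, 80934 and 121248 in GMPs (log2 3.82 ± 0.48, adjusted p = 0.000629). Elane, neutrophil elastase, went from 787, 1612 and 11793 to 51991, 28669 and 59578 (log2 4.18 ± 0.56, adjusted p = 0.000795). Prtn3, proteinase 3, went from 749, 1257 and 3310 to 16017, 8740 and 18071 (log2 3.22 ± 0.33). The cell types did not overlap for any of these genes, but the spread among KLS libraries was wide and pair 3 was the highest KLS library for each. Ctsg, cathepsin G, had 232, 644 and 2281 scaled reads in KLS cells and 10676, 7677 and 11544 in GMPs. Ms4a3 rose by 4.11 and Srgn, the proteoglycan core that packs granule proteins, by 1.19. Ctsc, the protease that activates the granule proteases, gave a smaller log2 difference of 0.60 ± 0.16, and its call was lost without pair 3 (adjusted p = 0.131) and on library totals (adjusted p = 0.0841). The list took 0.145, 0.191 and 0.487% of reads in KLS cells and 1.77, 1.25 and 1.96% in GMPs.

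Genes of the secondary and tertiary granules and of mature neutrophils had the highest median rise of the 24 lists. Of 24 genes, all tested, 22 rose and none fell (median log2 4.25), and for 18 the cell types did not overlap. Windows of the genes for neutrophilic granule protein and lactotransferrin, which lead this list, are printed with the letters TTGNGNAA of C/EBP sites in capitals.
Ngp (chr9:110419558-110419857, plus strand): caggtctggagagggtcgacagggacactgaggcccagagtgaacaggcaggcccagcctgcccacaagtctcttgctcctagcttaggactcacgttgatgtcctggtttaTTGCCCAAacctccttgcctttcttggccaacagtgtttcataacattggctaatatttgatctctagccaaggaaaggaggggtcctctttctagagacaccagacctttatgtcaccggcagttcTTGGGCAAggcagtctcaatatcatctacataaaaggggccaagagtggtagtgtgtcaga
Ltf (chr9:111019042-111019341, plus strand): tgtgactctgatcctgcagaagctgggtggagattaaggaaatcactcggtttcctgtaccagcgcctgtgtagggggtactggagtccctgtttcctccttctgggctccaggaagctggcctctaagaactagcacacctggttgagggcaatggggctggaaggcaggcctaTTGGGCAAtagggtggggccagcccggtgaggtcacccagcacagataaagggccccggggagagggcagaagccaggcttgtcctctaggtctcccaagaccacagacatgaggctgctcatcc
These letters, on either strand, were in 10 of the 21 genes of the list with a window (47.6%), in 4 of 16 primary granule genes (25%) and in 13.2% of all windows. In the stem cell list, whose tested genes fell, 22 of 30 genes had a window, and 6 of these (27.3%) held the letters. The share of genes with a window (73.3%) was below the limit set for a comparison. As a description, 27.3% was below the share of the late granule list but not below that of the primary granule genes. The letters therefore did not set the primary granule genes, which rose, apart from the stem cell genes. The letters GAGGAAG were in 8 of the 21 late granule genes (38.1%) and in 4 of the 22 stem cell genes (18.2%). The window of Camp, a further gene of the late granule list, held neither.

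Ngp had 822, 115 and 9859 scaled reads in KLS cells and 123416, 23630 and 100747 in GMPs (log2 6.09 ± 0.71, adjusted p = 0.000462). Ltf, lactotransferrin, went from 391, 15.6 and 3568 to 55076, 11422 and 42744 (log2 6.71 ± 0.88, adjusted p = 0.000725). Camp, the precursor of an antimicrobial cathelicidin, went from 153, 49.97 and 2078 to 23939, 3616 and 18639 (log2 5.53 ± 0.64). Within each cell type pair 2 was the lowest library for these genes, and among KLS libraries pair 3 was the highest. S100a9 and S100a8, which form calprotectin, rose by 5.52 and 5.49, Lcn2 by 5.96, Cd177 by 5.87 and Chil3 by 5.84. Itgam, the gene for CD11b, rose by 2.53, although CD11b was in the lineage panel. Csf3r, the receptor for G-CSF, rose by 0.58. Padi4 (log2 0.11) and Il1b (log2 0.52) did not pass the test. The list took 0.0724, 0.0438 and 0.358% of reads in KLS cells and 3.02, 0.719 and 2.46% in GMPs, so it varied more between GMP libraries than the primary granule list did. Without pair 3 the count stayed at 22 and the median rose to 5.22.

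**Figure D2:**
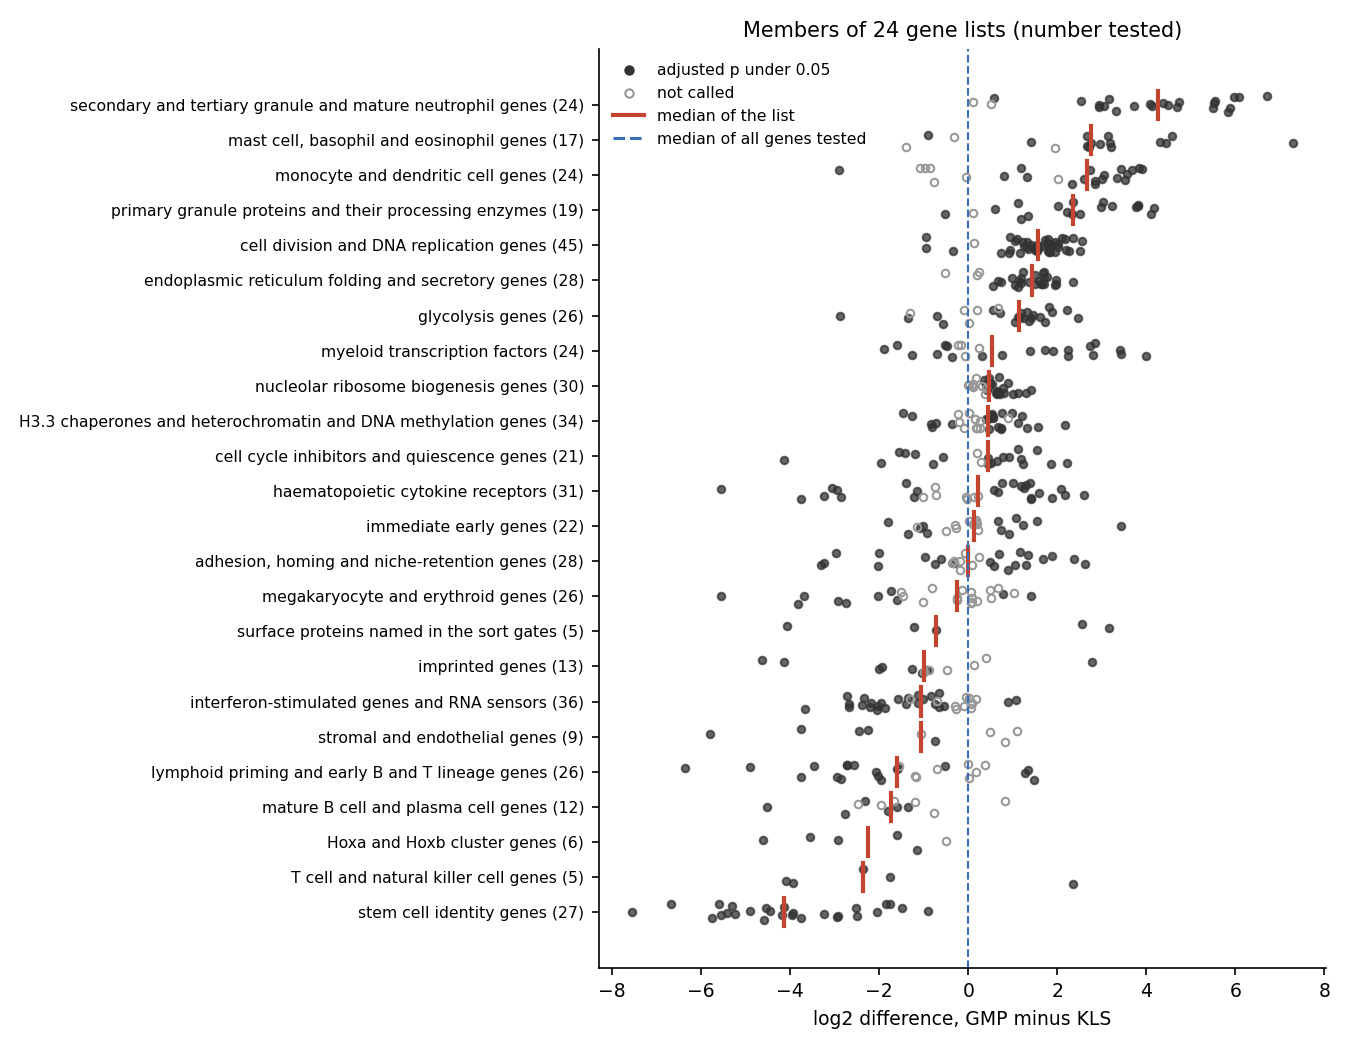
Log2 difference GMP minus KLS for the tested members of 24 gene lists, ordered by the median of the list (red bar), with filled points for genes at an adjusted p under 0.05, open points for the others and a dashed line at the median of all tested genes (-0.02). Late granule genes (median 4.25) stand at the top and stem cell genes (median -4.13) at the bottom.

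Monocyte genes rose in the same population. Of 24 tested monocyte and dendritic cell genes 17 rose and 1 fell (median log2 2.66). Csf1r, the receptor for M-CSF, had 268, 369 and 634 scaled reads in KLS cells and 2144, 2481 and 2621 in GMPs (log2 2.59 ± 0.19, adjusted p = 9.52e-05). Ly6c2, which encodes the monocyte antigen Ly6C, went from 256, 256 and 2569 to 7976, 4245 and 10485 (log2 3.68 ± 0.46). F13a1, coagulation factor XIII, went from 273, 2162 and 3866 to 14259, 23330 and 23292 (log2 3.91 ± 0.49). In contrast to granule genes, F13a1 was not low in the GMP library of pair 2. Fn1, fibronectin, differed by pair in both cell types, at 58.1, 106 and 808 in KLS cells and 623, 1450 and 9544 in GMPs, so that the cell types overlapped while each pair rose. Genes of antigen presentation stood apart from the rest of the list. Ciita, their master regulator, went from 66.1, 95.8 and 68.8 to 15.0, 65.5 and 0 (log2 -2.91 ± 0.97, adjusted p = 0.0377). It was the one member called lower, and the call was lost without the pairing (adjusted p = 0.0968), without pair 3 (adjusted p = 0.098) and with edgeR (adjusted p = 0.0937). Cd74 (log2 -1.09 ± 0.52), H2-Aa (log2 -0.87) and H2-Ab1 (log2 -0.06) did not pass the test.

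Receptors for cytokines changed in both directions, 15 rising and 9 falling of 31 tested (median log2 0.21, and -0.04 on the values as deposited). The receptor chains for GM-CSF rose, Csf2ra from 274, 203 and 457 to 1294, 1053 and 1742 (log2 2.18 ± 0.15) and Csf2rb from 653, 571 and 1038 to 3470, 2401 and 3505 (log2 2.08 ± 0.15). Ifngr1, a chain of the interferon-γ receptor, rose by 1.58 and Il6ra, the IL-6 receptor, by 1.29. Receptors that fell included those for the FLT3 ligand (Flt3, log2 -2.94), IL-7 (Il7r, log2 -3.75), IL-1 (Il1r1, log2 -3.05) and stem cell factor (Kit). The set of receptors thus differed between KLS cells and GMPs gene by gene.

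Genes of cell division were higher in GMPs. Of 45 genes for cell division and DNA replication, all tested, 41 rose and 3 fell (median log2 1.56). Mki67, the Ki-67 antigen of cycling cells, had 5410, 10613 and 14491 scaled reads in KLS cells and 41117, 27260 and 49910 in GMPs (log2 2.02 ± 0.26, adjusted p = 0.000666). Plk1, a mitotic kinase, rose by 2.54, E2f2 by 2.50, Rrm2, a subunit of ribonucleotide reductase, by 2.35, and Mcm5, a subunit of the replicative helicase, by 1.51. In this set genes of both replication and mitosis thus rose. The genes that fell were the D cyclins, which answer to growth signals. Ccnd1 went from 336, 276 and 212 to 178, 221 and 68.9 (log2 -0.95 ± 0.28), and its call was lost without pair 3 (adjusted p = 0.143) and without the pairing (adjusted p = 0.0959). Ccnd2 (log2 -0.35 ± 0.12) was lost under 4 alternatives and Ccnd3 (log2 -0.96 ± 0.32) under 3. Cdk6, their kinase partner, gave a log2 difference of 0.12 ± 0.12 (adjusted p = 0.418), which was below 0 on library totals.

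Cell cycle inhibitors and quiescence genes did not move as 1 group, since 12 of 21 rose and 7 fell. Cdkn1c, the inhibitor p57 of quiescent stem cells, went from 86.1, 81.1 and 44.96 to 2.31, 0.95 and 8.46 (log2 -4.13 ± 0.76, adjusted p = 0.00329). Foxo3, a transcription factor of quiescent stem cells, went from 7821, 7648 and 6677 to 2964, 3888 and 2829 (log2 -1.20 ± 0.12), and Foxo1 fell by 1.96. Cdkn2c, the inhibitor p18, rose by 1.85 and Rbl1, the pocket protein p107 whose gene is active in cycling cells, by 0.78. On library totals 7 of the 21 were called higher.

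Genes for making, folding and exporting protein rose. Of 28 endoplasmic reticulum folding and secretory genes 25 rose and none fell (median log2 1.43). Calr, calreticulin, had 10537, 9602 and 13849 scaled reads in KLS cells and 40091, 35372 and 38539 in GMPs (log2 1.76 ± 0.12, adjusted p = 8.24e-05). Hspa5, the chaperone BiP, went from 3502, 3344 and 5158 to 16213, 13794 and 15682 (log2 1.95 ± 0.14, adjusted p = 8.04e-05). Both were even across GMP libraries, unlike the granule genes. Sdf2l1 rose by 2.34 and Sec61b, a subunit of the translocation channel, by 1.96. Xbp1, which controls secretory capacity, gave 627, 484 and 2232 in KLS cells and 2166, 1348 and 2438 in GMPs. Its call (log2 1.13 ± 0.29, adjusted p = 0.0130) was lost without pair 2 (adjusted p = 0.0756) and without the pairing (adjusted p = 0.105), and the high KLS library was that of pair 3, in which immunoglobulin genes were also high.

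Nucleolar ribosome biogenesis genes shifted by less, 21 of 30 rising and none falling with a median log2 of 0.47. Npm1, nucleophosmin, rose by 0.72 ± 0.10, Ncl, nucleolin, by 0.64 ± 0.10 and Rrs1 by 1.42 ± 0.18. This count depended on the scaling, at 11 with library totals and 10 on the values as deposited, and was 13 without pair 3. Myc, a driver of ribosome biogenesis, gave a log2 difference of 0.17 ± 0.11 (adjusted p = 0.237), which was below 0 on library totals. Glycolysis genes rose in 17 of 26 cases and fell in 4 (median log2 1.13), the falls numbering 2 without pair 3 and 6 on the values as deposited. Pkm, pyruvate kinase, went from 4417, 4972 and 5524 to 15004, 10088 and 16240 (log2 1.45 ± 0.15), Gpi1 rose by 1.60 and Hk3, a hexokinase of myeloid cells, by 2.21. Slc2a3, the glucose transporter GLUT3, (log2 -0.71), and Pfkm, an isoform of phosphofructokinase found in muscle (log2 -1.35), fell.

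Interferon-stimulated genes and RNA sensors were lower in GMPs, 23 falling and 2 rising of 36 tested (median log2 -1.07). Rtp4 had 288, 275 and 109 scaled reads in KLS cells and 18.5, 25.6 and 7.25 in GMPs (log2 -3.67 ± 0.35, adjusted p = 0.000205). Oasl2 went from 774, 896 and 460 to 125, 163 and 56.8 (log2 -2.69 ± 0.20), and Irf7, which amplifies the response, from 196, 276 and 118 to 78.7, 79.8 and 59.2 (log2 -1.36 ± 0.28). The KLS library of pair 3 was the lowest KLS library for each, and the cell types did not overlap. The genes that rose were Gbp3 (log2 0.89 ± 0.14) and Ly6e (log2 1.06 ± 0.11). The mice of both cell types had received pI:pC 3 weeks earlier, and no library without it is in this set.

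Immediate early genes, which respond to stimuli within minutes, changed in both directions, 7 rising and 5 falling of 22 (median log2 0.13, and -0.08 on library totals). This was near the shares of all tested genes (27.0% higher and 25.4% lower), so the list did not stand out. Its counts were 6 and 1 without the pairing, 4 and 2 without pair 1, 5 and 3 without pair 3, and 4 and 5 on library totals. Klf4 and Fosl2 (log2 1.55 ± 0.24) rose. Egr1 fell by 1.80 and lost its call without pair 1 (adjusted p = 0.0668) and without the pairing (adjusted p = 0.0728).

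Daxx, the H3.3 chaperone deleted elsewhere in the series, was itself higher in wild-type GMPs, at 391, 433 and 463 scaled reads in KLS cells and 715, 670 and 764 in GMPs (log2 0.74 ± 0.15, adjusted p = 0.00485). The cell types did not overlap. In the further wild-type sets described below Daxx was also higher in GMPs but not called. The log2 difference was 0.80 in the Pu.1 line (adjusted p = 0.278) and 0.53 in the untimed set (adjusted p = 0.112). Atrx, the partner of Daxx in placing H3.3, did not pass the test (log2 0.02 ± 0.10, adjusted p = 0.911). It was not called in the Pu.1 line either (log2 0.24, adjusted p = 0.842). In the untimed set Atrx was called lower in GMPs (log2 -0.41, adjusted p = 0.00584). Hira, the chaperone of the other H3.3 pathway, did not pass the test (log2 0.16 ± 0.20, adjusted p = 0.529) and was not called in the further sets. Of 34 tested genes for H3.3 chaperones, heterochromatin and DNA methylation, 18 rose and 6 fell (median log2 0.44). On the values as deposited 10 rose and 8 fell.

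Among the members with the largest rises were genes that act at the replication fork. Asf1b and Chaf1a, chaperones of histones H3 and H4 in S phase, rose by 2.17 and 1.32, and Uhrf1 and Dnmt1, which copy DNA methylation to the new strand, by 1.57 and 1.12. Dnmt3b, which methylates DNA anew, went from 959, 1342 and 999 to 422, 595 and 364 (log2 -1.27 ± 0.14), and Tet1, which oxidizes methylated cytosine, from 2054, 2271 and 1466 to 710, 745 and 609 (log2 -1.47 ± 0.13). H3f3b, a gene for H3.3, rose by 0.75 ± 0.15, but was at 0.32 (adjusted p = 0.763) in the Pu.1 line and -0.14 (adjusted p = 0.362) in the untimed set. H3f3a, also a gene for H3.3, rose by 0.99 ± 0.28 (adjusted p = 0.0193), a call lost without pair 3 (adjusted p = 0.062). It was at 0.52 (adjusted p = 0.532) in the Pu.1 line and was called lower in the untimed set (log2 -0.60, adjusted p = 0.0441). Imprinted genes leaned towards lower values in GMPs, with 7 of 13 tested falling and 1 rising. Sgce (log2 -4.64), Cdkn1c (log2 -4.13) and Peg10 (log2 -1.93) were among those that fell, the last losing its call without pair 1 (adjusted p = 0.118) or pair 2 (adjusted p = 0.0689). The count of falls was 4 without pair 1 or pair 2 and 8 without pair 3.

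Of 26 tested genes of lymphoid priming and the early B and T lineages 15 fell and 3 rose (median log2 -1.59). Dntt, which encodes terminal transferase and marks lymphoid-primed progenitors, had 1631, 2147 and 1292 scaled reads in KLS cells and 10.4, 45.6 and 14.5 in GMPs (log2 -6.36 ± 0.32, adjusted p = 3.35e-05). Flt3, which marks the same progenitors, went from 2558, 3548 and 2834 to 376, 769 and 193. The GMP library of pair 2 was the highest GMP library for both. Il7r and Lck fell from 75.2 or more reads in each KLS library to 16.1 or fewer in each GMP library. Ikzf1, which encodes Ikaros, gave a log2 difference of -0.01 ± 0.10 (adjusted p = 0.920).

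Megakaryocyte and erythroid genes split. Of 26 tested genes 8 fell and 2 rose (median log2 -0.25). Vwf (log2 -2.92 ± 0.20) and Zfpm1, which encodes the partner FOG-1 of GATA factors (log2 -2.76 ± 0.19), fell together with Car2 (log2 -3.69 ± 0.14). Gata1 did not pass the test, at 122, 165 and 145 in KLS cells and 267, 206 and 213 in GMPs (log2 0.66 ± 0.25, adjusted p = 0.0533). Itga2b, the integrin CD41, was at 0.07 ± 0.18, and Fli1 at -0.26 ± 0.10 (adjusted p = 0.0567). Without pair 2 the list had 7 genes called higher.

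Genes for adhesion, homing and retention in the niche gave 12 rises and 9 falls of 28 (median log2 -0.00), and 10 and 12 on library totals. Cxcr4, the receptor for CXCL12, had 533, 727 and 666 scaled reads in KLS cells and 3042, 1544 and 2757 in GMPs (log2 1.88 ± 0.25, adjusted p = 0.000725). Itgb2, the shared β chain of leukocyte integrins, rose by 2.62 and Vcam1 by 2.36. Itga9 (log2 -3.24), Jam3 (log2 -2.98), Cd200 (log2 -3.32) and S1pr1, a receptor for exit to blood (log2 -2.02), fell. Itga4, the VLA-4 chain, did not pass the test (log2 -0.19 ± 0.10, adjusted p = 0.161).

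Genes of cells other than KLS cells and GMPs were examined as lists. Mast cell, basophil and eosinophil genes rose in 13 of 17 cases and fell in 1 (median log2 2.76), but without the pairing 7 were called higher and none lower. Some basophil and mast cell genes were low in every KLS library, but Cpa3 (343, 206 and 141 scaled reads) and Hdc (364, 159 and 588) were not. The fall was that of Gata2 (log2 -0.91), and Tpsb2 (log2 -1.40) and Cma1 (log2 -0.32) did not pass the test. Mcpt8, a basophil protease, went from 26.0, 9.01 and 14.7 to 326, 312 and 557 (log2 4.57 ± 0.39), and Ms4a2, a chain of the IgE receptor, from 36.0, 31.9 and 50.5 to 902, 1120 and 638 (log2 4.44 ± 0.30). Prss34, also a basophil protease, had 0, 2.46 and 11.9 scaled reads in KLS cells and 275, 452 and 1383 in GMPs (log2 7.30 ± 0.44, adjusted p = 5.31e-05), a larger rise than that of any late granule gene.

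Eosinophil granule genes followed the pair as well as the cell type. Epx, eosinophil peroxidase, had 17794, 156 and 4363 scaled reads in KLS cells and 38440, 4700 and 30919 in GMPs (log2 2.95 ± 0.57, adjusted p = 0.00407). Prg2, eosinophil major basic protein, had 20304, 223 and 5080 in KLS cells and 66568, 5783 and 46053 in GMPs (log2 3.20 ± 0.45). Pair 1 was high and pair 2 low in both cell types, so the values of the cell types overlapped although each pair rose. Without the pairing neither was called (adjusted p = 0.151 and 0.120). The list took 0.402, 0.0336 and 0.114% of reads in KLS cells and 0.885, 0.157 and 0.67% in GMPs. The part of mature eosinophils in the sorted cells was not tested.

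B cell and plasma cell genes were lower in GMPs in 6 of 12 cases and higher in none. Jchain, which joins secreted antibodies, had 418, 101 and 6891 scaled reads in KLS cells and 2.31, 26.6 and 262 in GMPs. Ighm had 6635, 2477 and 100952 in KLS cells and 1596, 1511 and 1786 in GMPs, and its call (log2 -2.86 ± 0.79, adjusted p = 0.0182) was lost without the pairing and in both count-based tests. The KLS library of pair 3 stood far above the others in both. The list, which does not hold Ighm, took 0.0113, 0.00824 and 0.0945% of reads in KLS cells and 0.0019, 0.00335 and 0.00788% in GMPs. Ighm alone took more, at 0.0540, 0.0203 and 0.829% in KLS cells and 0.0108, 0.0116 and 0.0121% in GMPs. Immunoglobulin genes share sequence with their relatives, and the assignment of reads among them is uncertain. Of T cell and natural killer cell genes 5 of 17 passed the minimum level. Cd247 (log2 -4.10) and Cd4 (log2 -2.36) fell, the latter call being lost without pair 3 (adjusted p = 0.167). Nkg7 (log2 2.35 ± 0.20), which the primary granule list also holds, rose. Of 9 tested stromal and endothelial genes 5 fell (median log2 -1.07), and 3 without pair 3 (median -0.36). Among them Emcn, a sialomucin that stem cells also carry, went from 521, 553 and 493 to 9.26, 16.1 and 3.63. The share of these other cells in the results above was not tested.

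**Figure D3:**
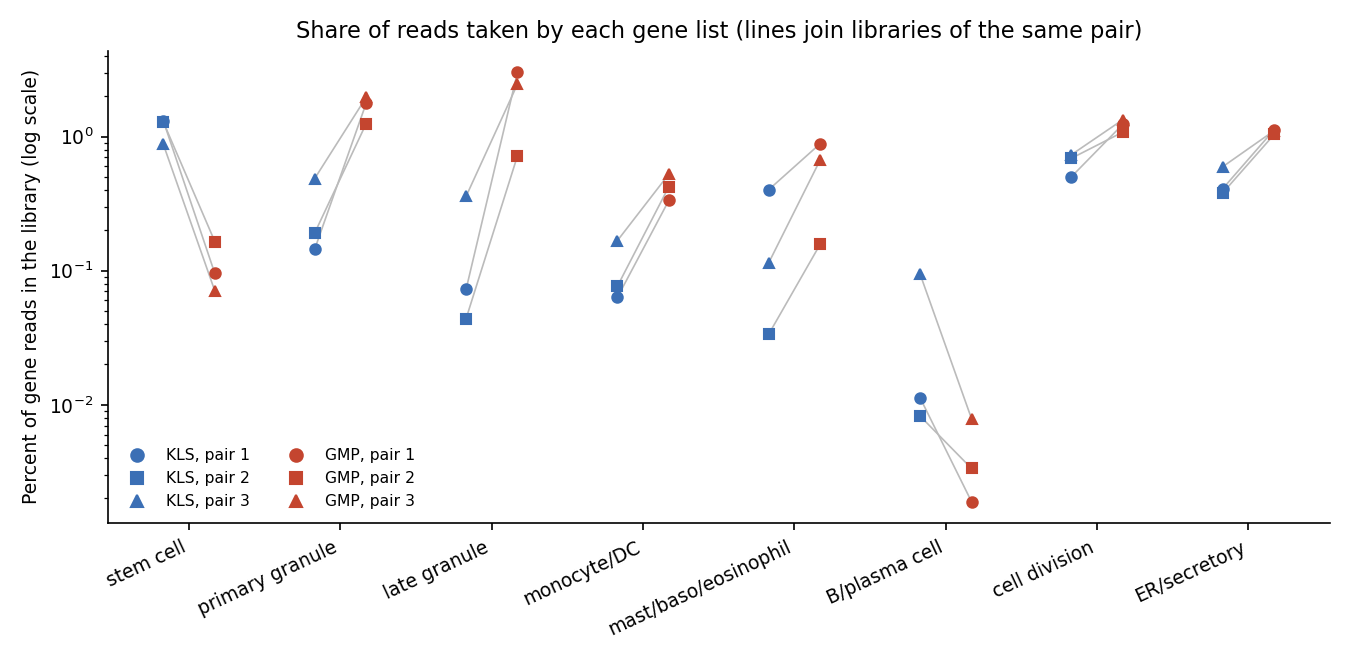
Percent of gene reads (log axis) taken by 8 gene lists in each KLS (blue) and GMP (red) library, with a line joining the libraries of a pair. Late granule genes rise from 0.0438 to 0.358% in KLS cells to 0.719 to 3.02% in GMPs, the mast, basophil and eosinophil list is highest in pair 1 of both cell types, and the B and plasma cell list is highest in the KLS library of pair 3.

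Levels of different genes can be compared per kilobase of exon. By mean scaled reads per kilobase, the highest protein-coding genes in GMPs were S100a9, Ngp, Elane and Prg2, followed by Actb, S100a8 and Mpo. In KLS cells they were Eef1a1, Actb, Hsp90ab1 and Lrmda, housekeeping genes with the exception of the last. S100a9 had 93049 scaled reads per kilobase in GMPs and 4505 in KLS cells, and Elane had 47506 and 4807. The order of GMP genes depended on the library. In the GMP library of pair 2, Elane (29135) was above S100a9 (25858), and Prg2 (6902), S100a8 (6338) and Camp (4771) were below Actb (18601), Hsp90ab1 (18675) and Eef1a1 (17151).

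The same step was measured in 2 further wild-type sets that share no library with the first. One came from the Pu.1 line at 3 w.p.i. (labelled Pu.1 +/+ Cre +/- in the Mx1Cre line, 2 libraries of each cell type, paired by number). The other carried no time point (labelled Daxx +/+ Cre +/-, 2 libraries of each cell type), and per the study some KLS cells and GMPs were taken from transplanted mice, so which condition it stands for is not settled. In the Pu.1 line 7.20% of 19496 tested genes were called, 624 (3.20%) of them higher and 779 lower. In the untimed set 41.8% of 12801 were called, 21.1% higher and 20.7% lower. Of the genes called at 3 w.p.i. and tested in the Pu.1 line, 7042 of 7560 (93.1%) had the same sign there, and 6427 of 7012 (91.7%) in the untimed set. Among genes called in both the first set and the other, signs were opposite for 1 of 1311 in the Pu.1 line and 73 of 4240 in the untimed set. Across genes the log2 differences correlated at r = 0.776 and 0.841, a description in which genes are not independent and the sets differ in depth and size.

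The stem cell list fell in both further sets, 21 of 27 genes in the Pu.1 line (median log2 -2.51) and 24 of 25 in the untimed set (median -3.77), and none rose. Primary granule genes rose in 13 of 19 (median 3.05) and 17 of 19 (median 2.53), and endoplasmic reticulum genes in 20 and 23 of 28. Interferon-stimulated genes fell in 11 of 36 (median -0.93) and 21 of 33 (median -1.14). Late granule genes rose less evenly, at 7 of 24 (median 0.99) and 8 of 21 (median 2.24, with 1 fall), against 22 of 24 (median 4.25) in the first set.

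Other lists differed more between the sets. Genes for cell division rose in 7 of 45 cases in the Pu.1 line (median 0.88), and in the untimed set 24 rose and 4 fell (median 0.39), against 41 and 3 in the first set. In the untimed set replication genes such as Mcm2 (log2 0.90) and Mcm4 (log2 0.72) rose. Of the genes of mitosis Aurkb (log2 0.66) and Ccnb2 (log2 0.60) rose, but Mki67 was at 0.00 (adjusted p = 0.988), Top2a, a topoisomerase of dividing cells, at -0.20 (adjusted p = 0.104), and Kif11, a kinesin of the spindle, fell by 0.36 (adjusted p = 0.0187). These genes were picked after their values were seen.

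Of the cell cycle inhibitors and quiescence genes 2 rose and 12 fell of 20 in the untimed set (median -0.62), where the first set had 12 rises and 7 falls, and 1 of 22 fell in the Pu.1 line (median -0.24). Immediate early genes likewise gave 2 rises and 12 falls of 22 in the untimed set (median -0.78) and 3 falls of 24 in the Pu.1 line (median -0.53). The chromatin list gave 9 rises and 9 falls of 34 in the untimed set (median 0.11). In the Pu.1 line its median was 0.46, but 0 of its 34 genes were called. Monocyte and dendritic cell genes gave 8 rises and 4 falls of 24 in the Pu.1 line and 16 and 5 of 23 in the untimed set. The mast cell, basophil and eosinophil list rose in 2 of 15 cases in the Pu.1 line (median 0.19) and in 14 of 15 in the untimed set (median 5.46).

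The late granule list took 0.499 and 0.422% of reads in GMPs of the Pu.1 line and 0.185 and 0.214% in untimed GMPs. In KLS cells it took 0.33 and 0.245%, and 0.148 and 0.0347%. All 4 of these GMP libraries were below the 3 GMP libraries of the first set, while primary granule genes took 2.28 and 2.38% and 1.41 and 1.43% of their reads, within or above the range at 3 w.p.i. Members of the list differed in the Pu.1 line, where 7 were called higher and 0 lower. Ltf took 0.0431 and 0.0282% of reads in its GMPs and 0.0519 and 0.032% in its KLS cells, so no rise was seen for Ltf. Ngp took 0.0775 and 0.0507% in those GMPs and 0.0695 and 0.0486% in those KLS cells, so the cell types overlapped. Camp took 0.0295 and 0.0218% in those GMPs and 0.0122 and 0.0106% in those KLS cells. S100a9 took 0.0818 and 0.0709%, and 0.0496 and 0.0353%. In the untimed set Ngp took 0.00397 and 0.016% of reads in GMPs and 0.0238 and 0.000101% in KLS cells. Ltf and Camp also overlapped between the untimed cell types, while S100a9 was higher in both untimed GMP libraries (0.0256 and 0.0335%) than in KLS cells (0.0252 and 0.000178%). Whether the sets differ was not tested, because they were normalized apart, and set, line and handling cannot be told apart.

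**Figure D4:**
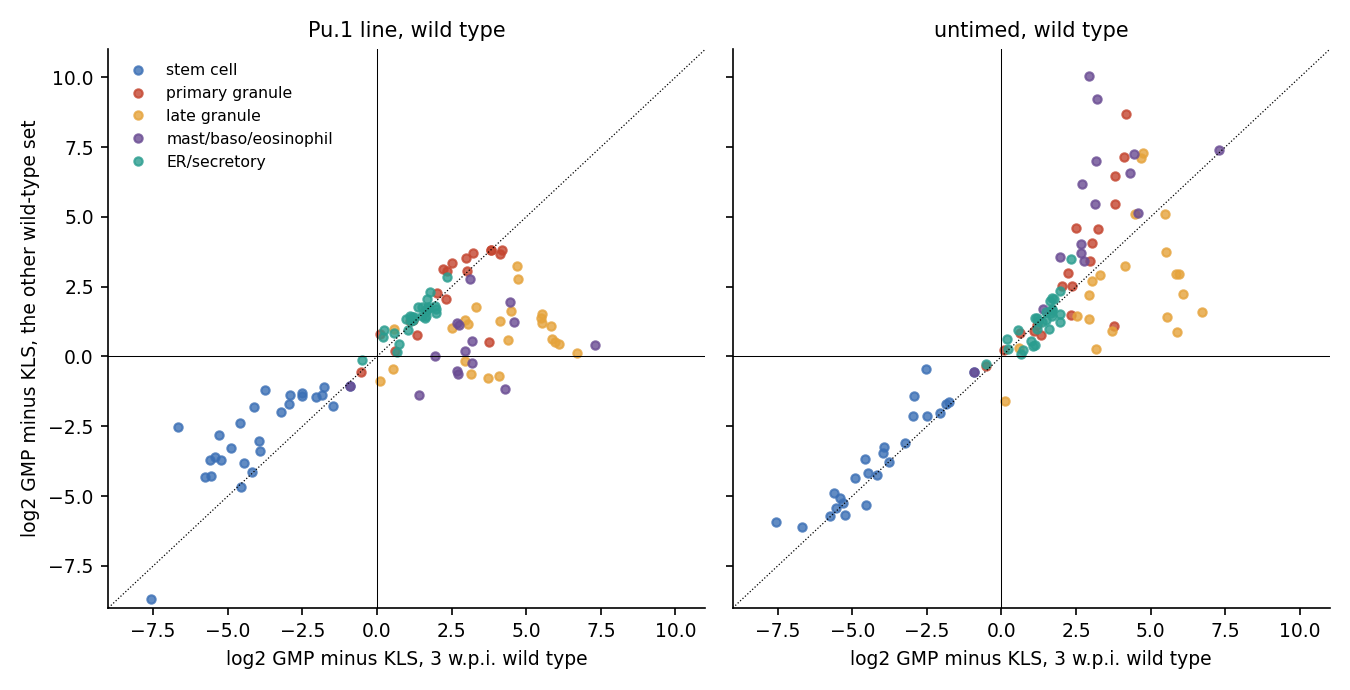
Log2 difference GMP minus KLS for members of 5 gene lists in the first wild-type set (x axis) against the wild type of the Pu.1 line (left) and the untimed wild type (right), with a dotted line of equality. Stem cell genes lie below 0 on both axes, and the late granule list has a median of 4.25 on the x axis and of 0.99 and 2.24 on the y axes.

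The step was also compared with that of mice lacking Daxx (Daxx F/F Cre +/-, 3 pairs) or labelled as F/F for Daxx as well as Pu.1, with Cre +/- (DKO, 2 pairs), all 16 libraries entering 1 fit. Daxx was at 61.2 to 93.2 scaled reads in the libraries of both mutants and at 397 to 757 in wild type. Spi1 was at 2713 to 4205 in the libraries labelled DKO and at 1570 to 5065 in wild type, so the gene count does not show the deletion, and which part of Spi1 the allele removes is not given in the labels.

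For the step without Daxx, 1 of 14744 genes (0.00678%) differed from wild type by limma, and 551 had an unadjusted p under 0.05. That gene was Igha (log2 difference of the step -7.40, adjusted p = 0.0181), an immunoglobulin gene that varied from 11.2 to 2675 scaled reads among wild-type KLS libraries. edgeR also called 1. No wild-type granule, stem cell or cell division gene of the lists was called as differing, and for Mpo the difference of the step was 1.02 ± 0.86 and for Ngp -0.65 ± 0.88, intervals wide enough to hold changes of more than 2-fold.

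For the libraries labelled DKO, 371 genes (2.52%) differed in the step, 166 (1.13%) upwards and 205 (1.39%) downwards. The balance turned without the pairing, to 84 upwards and 38 downwards, and without DKO pair 1, to 29 and 9. Ngp did not rise there, at 126009 and 90781 scaled reads in KLS cells and 108375 and 66084 in GMPs (difference of the step -6.39, adjusted p = 0.0122). This call was lost without the pairing (adjusted p = 0.134) and without DKO pair 1 (adjusted p = 0.0893). Elane was at 44082 and 40050 in those KLS cells (difference -4.15 ± 0.94, adjusted p = 0.0471), and its call was lost under 9 of 12 alternatives, among them no pairing (adjusted p = 0.089) and edgeR (adjusted p = 0.0681). These KLS libraries thus held Ngp and Elane at levels near those of wild-type GMPs. Of the late granule list 9 genes had a smaller and 1 a larger step, and of the primary granule list 7 a smaller one. Gata2 had a step of 1.83 against -0.94 in wild type (adjusted p of the difference = 0.00248), a call kept under each of the 12 alternatives. The count of 371 was 38 without DKO pair 1, 79 without wild-type pair 1 and 633 without Daxx-KO pair 2.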

How the data were processed

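RNA-seq of sorted KLS cells and GMPs was used. The deposited signal is what the authors obtained, on mm10, when they divided the reads of each gene by the size factor of its library, table by table. The submitters' processing notes name CASAVA 1.8.4, cutadapt 1.13, STAR 2.5.3 and DESeq2 1.16.1 without roles. The use of strand is not stated. The kit is not settled, since labels and methods differ. In every used column 100% of values above 0 were whole reads within 0.01 of the step of the column, which gave the depth.

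Tables were joined by gene and rescaled by medians of ratios over genes above 0 in all libraries. In R 4.3.3, limma 3.58.1 was fitted with its trend option to log2(value + 1) of genes whose mean reached 10, with the number as a block as the question was posed. Fold changes on this scale understate those of low genes. Benjamini-Hochberg adjustment ran over all genes tested, and genes were called at an adjusted p under 0.05. Intervals and p-values cover the spread between these samples, and the labels do not say what the number stands for. It was read as the animal, and 1 KLS column (pair 3) was mapped to wild type because its repeat column ends in the control tag, the GMP columns from the numbers the KLS labels give. Deviations of same-numbered libraries correlated at 0.050, 0.139 and 0.163, and each library correlated best with its own number.

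The 24 gene lists, the members and the tests were chosen with earlier results of these data known. Named genes are the gate genes, Daxx and Spi1, the 10 largest rises and falls among called genes with a mean of 50 or more and no overlap, the 4 called members of each list with the largest change and the 2 with the highest level, the 3 largest differences of the step in each direction, and list members named where they are described. The RefSeq promoter table held 27025 gene symbols, and windows of other gene groups matched for fewer than 80% of genes were not compared. The stem cell list and the genes that changed at least 8-fold were below this limit, and their shares are given as a description. Alternatives were no block, other scalings, pseudocounts and filters, edgeR 4.0.16 and DESeq2 1.42.0 on the recovered reads, and each pair left out. The tests were run on simulated counts in which few genes changed, evenly in both directions, with the same dispersion for all genes. For the differences of the step the simulated counts held no effect of the animal. This check does not cover data in which most genes are called or the scaling moves the split. Of 111 columns of values in the tables, 87 were not used. Libraries of other times and cell types were not analysed here, and a few list members are not reported here.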

Additional observations from a re-analysis of the deposited data

Results flagged for a closer look

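The GMP minus KLS step differed between genotypes in a test of the difference itself for 1 gene without Daxx, Igha (-7.40 on the log2 scale), and for 371 genes in the libraries labelled DKO. Among the latter, the largest downward differences were those of Igkv1-117 (-9.44), Ngp (-6.39) and Chit1 (-6.22), and the largest upward ones those of Aqp9 (4.72), Mkx (4.89) and Kcnk12 (5.89). Of these 7 calls those of Aqp9 and Kcnk12 were kept under every alternative run. Without the replicate block the calls of Ngp (adjusted p = 0.134), Chit1 (adjusted p = 0.089), Mkx (adjusted p = 0.0627) and Igha were lost, and without DKO pair 1 those of Ngp, Chit1, Mkx (adjusted p = 0.0527) and Igkv1-117 (adjusted p = 0.0973). Igha also lost its call without any 1 of the wild-type pairs (adjusted p from 0.0599 to 0.223), Chit1 without wild-type pair 1 or 2 or DKO pair 2, and Igkv1-117 with edgeR (adjusted p = 0.323), without wild-type pair 1 and without DKO pair 2. Igha and Igkv1-117 belong to immunoglobulin families whose reads cannot be assigned with certainty.

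A few named genes went one way in every pair of the first wild-type set and the other way in every library of another wild-type set. This difference was not tested, and H3f3a was not part of the search. In the Pu.1 line these were Fcer1a (-1.17 there against 4.30), Prg2 (-0.24 against 3.20), Klf2 (-0.62 against 2.21) and Fli1 (0.43 against -0.26), and none of these passed the test in that line (adjusted p from 0.436 to 0.814). In the untimed set they were Klf2, a transcription factor of quiescent cells (-1.11, adjusted p = 0.0113), and Fli1 (0.12, adjusted p = 0.326). Fcer1a encodes a chain of the IgE receptor and belongs to the mast cell, basophil and eosinophil list. No group held the 4 samples that a search for single outlying libraries needs.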

How the results depend on the processing

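The count of 7624 genes in the main comparison stayed within 1.5 times under every alternative run, between 5460 without pair 1 and 7741 with a pseudocount of 8. It was 7237 with edgeR, 7147 with DESeq2, 7405 without pair 2 and 5578 without pair 3. Without the replicate block it was 7152, of which 6976 were among the 7624. The share of calls that were higher was 51.5%, and 38.3% with library totals, 35.4% on the values as deposited and 50.8% with TMM. No gene called in the main comparison was called in the opposite direction without a pair, without the block or under another scaling. Of 170 named genes called, H3f3a not counted, 144 kept direction and call in every alternative. Named genes that changed sign were not called in the main fit. On library totals and on the values as deposited these were Atrx (-0.194 and -0.237), Cdk6 (-0.0863 and -0.129), Hira (-0.0461 and -0.0885), Itga2b (-0.138 and -0.181), Padi4 (-0.102 and -0.144), Myc (-0.0404 and -0.083) and Samhd1 (-0.147 and -0.19). When each pair was left out in turn, Atrx ranged from -0.0201 to 0.0833, Itga2b from -0.147 to 0.302 Samhd1 from -0.161 to 0.201, Padi4 from -0.0305 to 0.384 and H2-Ab1 from -0.386 to 0.13.

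The 1403 genes of the Pu.1 line became 3608 without the replicate block, an alternative added after seeing the data, and 3305 with edgeR, and ranged from 804 to 7465 when 1 library was left out. The 1 gene of the step without Daxx became 2 without the replicate block and ranged from 0 to 2 without 1 pair. For the step of the libraries labelled DKO, the 371 genes became 122 without the replicate block and 210 without the filter, and ranged from 38 to 633 without 1 pair. The count was 167 without Daxx-KO pair 3, 192 without wild-type pair 2 and 220 without DKO pair 2. Without the block Ctsc (adjusted p = 0.103) and Jchain (adjusted p = 0.0671) also lost their calls. The cause of these changes was not tested. With 3 pairs, or 2, per group, small differences of low genes could not be resolved, and groups left with 1 library were assumed to vary like the others.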
